A study of Mus musculus with 3 samples.

Results

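A set of 38 genes stood at 2 FPKM or more in the library labelled Tam and below 1 FPKM in both other RNA-seq libraries of a study of the *Oct4* distal enhancer (DE) in mouse embryonic stem cells (ESCs). FPKM counts sequenced fragments per length of transcript and per depth of the library. The genes were taken from 23953 rows of the deposited tables. 62 rows met these levels (0.259% of all rows), and 24 of them were set aside by symbol: 18 microRNA rows starting Mir, 1 row starting Snor, 2 olfactory receptor rows, 1 row starting Gm, and *Cdx2* and *Tfap2a*. Of the 19985 rows that the symbol rule kept, the 38 genes were 0.19%. They were chosen by their FPKM in these same 3 libraries, so their levels are given as a description and no test was made of them.

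The study removed the *Oct4* DE, the enhancer upstream of *Pou5f1* (the gene of OCT4) that is active in naive ESCs, to learn which genes depend on it beyond OCT4 itself. All cells were E14 ESCs kept in serum medium with LIF, and all 3 libraries carry the same construct labels, doxycycline inducible and tamoxifen inducible. The library labelled Tam came from a line whose *Oct4* DE is flanked by loxP sites and which carries transgenic mOct4, after 48 h of 4-OH tamoxifen to activate a CreERT2 recombinase delivered by lentivirus. The one labelled DoxTam received 4-OH tamoxifen and doxycycline for 48 h, and doxycycline switches on the transgenic mOct4. The paper made mono-allelic and bi-allelic loxP lines, and states that its RNA-seq of both treatments used cells deleted on both alleles (−/−). The library labelled WT is described as E14 ESCs, and the sources used here do not say whether it came from the parental line or from the floxed line without agents. The floxed lines were clonal. Each condition was 1 library, so no replicate spread, error or p-value exists for any difference below, and clone, culture and treatment cannot be told apart.

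*Pou5f1* stood at 529 FPKM in the library labelled Tam, beside 664 in WT and 458 in the one labelled DoxTam. The cells given doxycycline to switch on mOct4 therefore had the lowest *Pou5f1* level, which goes against their label. *Pou5f1* also stayed high in the library labelled Tam. By qPCR the paper reported nearly no *Oct4* expression after tamoxifen alone in its line deleted on both alleles. The Tam label is thus not borne out by *Pou5f1* either, and the reason was not tested. WT, Tam and DoxTam are used below only as the names of libraries. The 10 ESC markers examined were all expressed, with summed levels of 3051, 2782 and 2776 FPKM in WT, Tam and DoxTam. None of them differed by 1.5-fold between Tam and WT on the scale of FPKM + 1, the measure called 1.5-fold below. The libraries differed in how many rows were listed at 0, which were 5333 in WT, 3667 in Tam and 6634 in DoxTam.

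ESCs transcribe the genes of self-renewal strongly and keep most genes of specialised tissues silent or near silent. A gene of such a tissue that appears in a culture of ESCs may be read from few fragments, and its level per length is then a coarse measure. The 38 genes are known from many tissues: among them are enzymes of liver and brain, a surface antigen of blood stem cells, a skin envelope protein, a lens crystallin, pigment cell proteins and a subunit of the pre-B cell receptor.

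The set was uneven in level. 4 of the 38 genes reached 10 FPKM in the library labelled Tam and 7 reached 5 FPKM, 8 lay from 3 to under 5 FPKM, and 23 lay from 2 to under 3 FPKM. Leaving aside the small RNA gene *Scarna10*, which was listed at 9490.74 FPKM, the Tam levels ran from 2.04 to 18.7 FPKM with a median of 2.60. The median of the 38 genes was 0.513 FPKM in WT and 0.537 in DoxTam. On the log2(FPKM + 1) scale the median difference between Tam and WT was 1.34, beside 0.02 over all genes at 1 FPKM or more in either library. Between Tam and DoxTam the median difference was 1.39, beside 0.02 over all genes. All 38 genes were over 1.5-fold higher in Tam than in WT, beside 6.98% of 12705 genes, and the rule that chose them fixes that count.

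**Figure D1:**
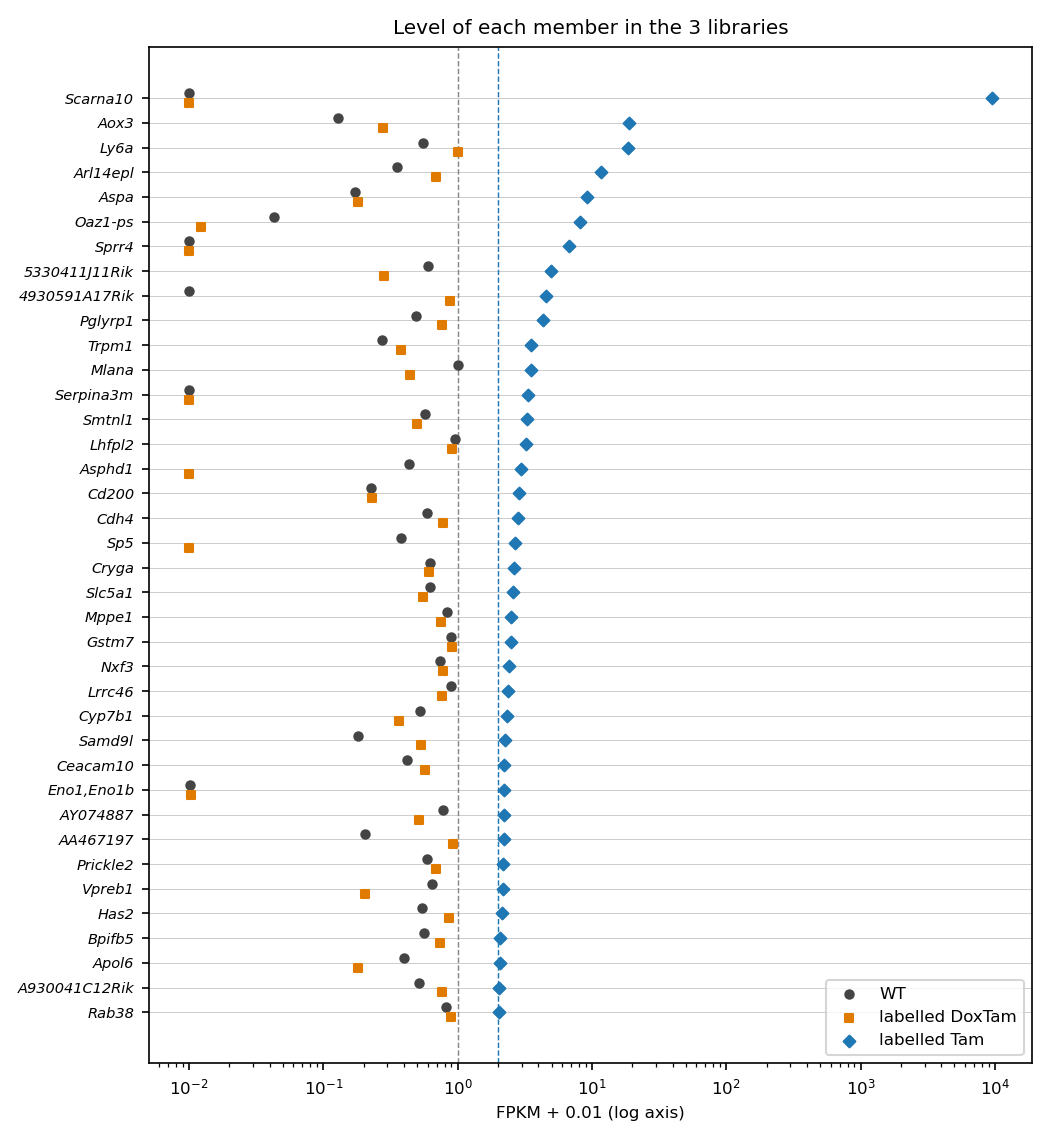
Level of each of the 38 genes in the WT library (circles), the library labelled Tam (diamonds) and the one labelled DoxTam (squares), as FPKM + 0.01 on a log axis; dashed lines mark 1 and 2 FPKM. *Scarna10*, *Aox3*, *Ly6a* and *Arl14epl* stand above 10 FPKM in Tam, while 23 genes lie from 2 to under 3 FPKM.

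The size of the step differed from gene to gene. For 10 genes the Tam level was over 10 times each of the other levels, or the gene was listed at 0 in both, and for 8 it was under 3 times the higher of them. 3 genes were listed at 0 in both other libraries, which were *Scarna10*, *Sprr4* and *Serpina3m*, and no fold is given against a level listed at 0. *4930591A17Rik* was listed at 0 in WT, and *Asphd1* and *Sp5* were listed at 0 in DoxTam.

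The set is led by 4 genes that share their place with no other row: *Aox3*, *Aspa*, *Arl14epl* and *Ly6a*. *Aox3* encodes an aldehyde oxidase, a molybdenum-containing enzyme best known from liver that oxidises aldehydes and many drugs with nitrogen rings. It lies on chr1:58169980-58257296 (mm9, plus strand), and its level was 18.7 FPKM in the library labelled Tam, beside 0.118 in WT and 0.271 in the one labelled DoxTam. The Tam level was 69.2 times the DoxTam level and 158 times the WT level. *Aox3* sits inside a cluster of the same enzyme family, with *Aox1* on its left and *Aox4* and *Aox2* on its right. Those relatives all lay below 1 FPKM, with *Aox1* at 0.243, 0.621 and 0.444 FPKM in WT, Tam and DoxTam, *Aox4* at 0.0268, 0.316 and 0.141, and *Aox2* at 0.0144, 0.203 and 0. A list of these oxidases, xanthine dehydrogenase, the cofactor enzyme *Mocos* and sarcosine dehydrogenase gave 7 genes, of which 2 could be measured at 1 FPKM or more in Tam or WT. *Aox3* was 1.5-fold higher, which the rule fixes, and *Mocos* stood at 1.17, 1.16 and 1.62 FPKM.

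*Aspa* encodes aspartoacylase, which splits N-acetylaspartate into aspartate and acetate and whose loss causes Canavan disease, a disorder of brain white matter. The gene lies on chr11:73118490-73138139 (mm9, minus strand) and stood at 9.26 FPKM in the library labelled Tam, beside 0.162 in WT and 0.170 in the one labelled DoxTam. The WT and DoxTam levels were nearly equal, and the Tam level was 54.3 times the higher of them. On either side lie *Trpv3*, at 0.222, 0.154 and 0.115 FPKM in WT, Tam and DoxTam, and *Spata22*, at 0.863, 0.973 and 0.999. Among 12 genes of N-acetylaspartate and acylase metabolism or adjoining *Aspa*, 6 could be measured and 2 were 1.5-fold higher in Tam, beside 6.98% of all genes: *Aspa*, for which the rule fixes it, and *Naalad2*. *Naalad2*, a peptidase that acts on N-acetylaspartylglutamate, stood at 0.298, 1.57 and 0.515 FPKM in WT, Tam and DoxTam. None of the 6 measured genes was 1.5-fold lower in Tam. *Acy1*, an aminoacylase, stood at 16.8, 10.9 and 10.8 FPKM and came just short of that limit in Tam.

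*Arl14epl* is named for its likeness to *Arl14ep*, the gene of an effector of the small GTPase ARL14. It lies on chr18:47081469-47093876 (mm9) and stood at 11.7 FPKM in the library labelled Tam, beside 0.341 in WT and 0.675 in the one labelled DoxTam, so that the Tam level was 17.4 times the DoxTam level. *Arl14ep* itself was expressed in all 3 libraries, at 19.3, 15.8 and 20.3 FPKM in WT, Tam and DoxTam. The genes on either side of *Arl14epl* were *4833403I15Rik*, at 0.127, 0.163 and 0.0391 FPKM, and *Commd10*, at 15.4, 17.7 and 20.1 FPKM.

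*Ly6a* encodes the surface antigen Sca-1, a small protein held to the membrane by a lipid anchor and used to mark blood stem cells. It lies on chr15:74825307-74828461 (mm9, minus strand), and its level was 18.5 FPKM in the library labelled Tam, beside 0.545 in WT and 0.991 in the one labelled DoxTam, just under the limit of 1 FPKM. The Tam level was 18.6 times the DoxTam level. Next to it lie *Ly6i*, at 0.0979, 0.194 and 0.175 FPKM in WT, Tam and DoxTam, and *Ly6c1*, at 0.263, 0.625 and 0. *Ly6e*, the most strongly expressed of the family besides *Ly6a*, lies beyond *Ly6i* and stood at 14.5, 15.1 and 10.4 FPKM. In the Ly6 family 17 genes were found and 5 could be measured. *Ly6a* and *Slurp1* (0.596, 1.54 and 0.343 FPKM) were 1.5-fold higher in Tam, the first by the rule, beside 6.98% of all genes, and none was lower. The family's median log2 difference was 0.29, beside 0.02 over all genes. *Ly6a* is also known to answer to interferon, and of 16 interferon response genes 6 could be measured and none was 1.5-fold higher or lower, with *Bst2* at 61.2, 43.4 and 42.9 FPKM in WT, Tam and DoxTam. Of the genes next to the 4 leading genes only *Commd10* could be measured at 1 FPKM in Tam or WT, and it was not 1.5-fold higher in Tam. The others lay below 1 FPKM in both libraries, where a 1.5-fold step on FPKM + 1 is hard to reach. Whether they changed cannot be read from these levels.

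Promoter sequences were looked up for all 38 genes in RefSeq (GRCm38.p6, 250 bases before to 50 after each start), and 20 genes matched with 26 promoters. Sequences are given for the 3 matched genes that were above 0 in every library and over 10 times both other levels in Tam, since these carry the largest steps. These are *Aox3* (GRCm38.p6 chr1:58112886-58113185, plus strand), *Aspa* (GRCm38.p6 chr11:73324588-73324887, minus strand) and *Cd200* (GRCm38.p6 chr16:45409004-45409303, minus strand). They are written 5′ to 3′ along the gene, and capitals mark the letters of a CCAAT box (CCAAT or its reverse complement), a TATA box (TATAAA or its reverse complement) or a GATA site (AGATAA or its reverse complement).
Aox3: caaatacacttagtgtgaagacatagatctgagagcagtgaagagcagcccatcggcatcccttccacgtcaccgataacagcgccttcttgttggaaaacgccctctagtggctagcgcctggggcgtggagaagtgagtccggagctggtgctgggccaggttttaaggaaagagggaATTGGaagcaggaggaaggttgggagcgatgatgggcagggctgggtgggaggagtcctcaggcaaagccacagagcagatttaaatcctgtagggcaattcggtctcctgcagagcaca
Aspa: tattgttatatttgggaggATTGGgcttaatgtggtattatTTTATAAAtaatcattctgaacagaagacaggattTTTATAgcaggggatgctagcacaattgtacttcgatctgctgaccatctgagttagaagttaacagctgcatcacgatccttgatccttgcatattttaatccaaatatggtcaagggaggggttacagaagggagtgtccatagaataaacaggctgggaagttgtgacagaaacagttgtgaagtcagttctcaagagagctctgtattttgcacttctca
Cd200: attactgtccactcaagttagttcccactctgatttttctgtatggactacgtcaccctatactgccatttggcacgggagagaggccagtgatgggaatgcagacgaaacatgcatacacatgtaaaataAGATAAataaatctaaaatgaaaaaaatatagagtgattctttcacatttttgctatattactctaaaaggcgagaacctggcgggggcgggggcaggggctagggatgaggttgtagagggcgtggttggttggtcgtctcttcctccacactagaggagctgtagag
The *Aox3* promoter holds 1 CCAAT match, 70 bases before the start. In *Aspa* a CCAAT match begins 231 bases before the start, and TATA matches begin 209, 207 and 174 bases before it, of which the first pair overlap. *Cd200* holds 1 GATA match, 119 bases before the start. None of the capitalised motifs is found in all 3 promoters.

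Over the 26 promoters the letters were searched on both strands and set beside 32851 promoters of the same length. The octamer ATGCAAAT, the site bound by OCT4, occurred in 0 of 26, beside 1.74% of all promoters. A full oestrogen response element occurred in 0, beside 0.07%, and the shorter AGGTCA it is built from in 3 (11.5%), beside 16.3%. The interferon-stimulated element occurred in 0, beside 3.44%. TATAAA occurred in 3 promoters (11.5%, beside 13.6%) and the AP-1 site TGANTCA in 2 (7.69%, beside 7.81%). Shares above those of all promoters were found for the E-box CANNTG (23 promoters, 88.5% beside 72.3%), AGATAA (5, 19.2% beside 11.2%) and CCAAT (12, 46.2% beside 37.4%), and a near equal share for the GC box GGGCGG (9, 34.6% beside 35.7%). Some genes gave more than 1 promoter, and a match to such short letters only describes the window.

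**Figure D2:**
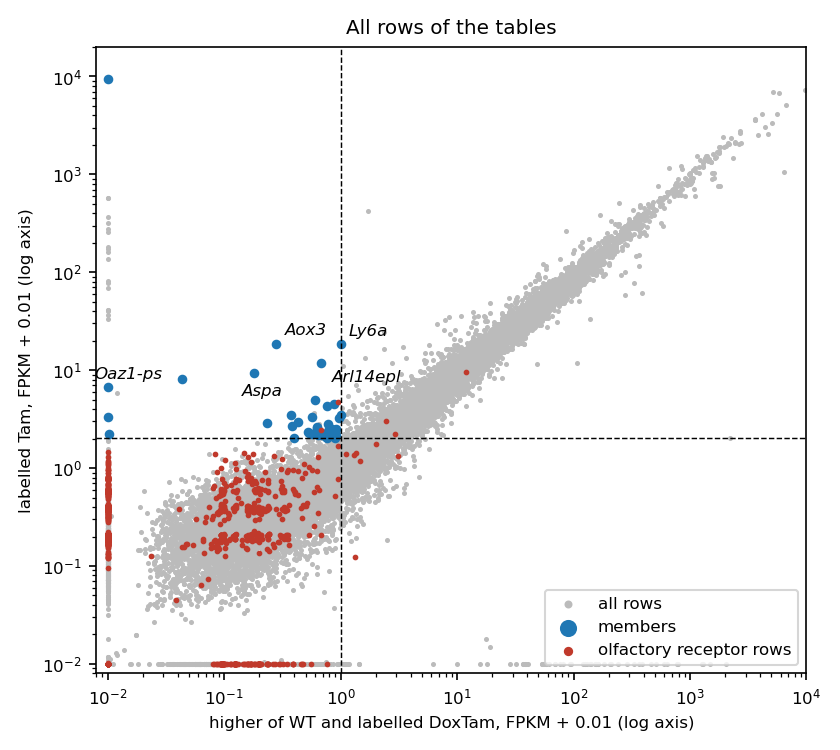
Level in the library labelled Tam against the higher of the WT and DoxTam levels for all rows, as FPKM + 0.01 on log axes, with the 38 genes and the olfactory receptor rows marked; dashed lines mark 2 FPKM and 1 FPKM. *Aox3*, *Ly6a*, *Arl14epl* and *Aspa* lie well above the cloud of rows, while the genes from 2 to under 3 FPKM lie at its edge.

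The other enzymes of the set lay from 2 to under 3 FPKM in the library labelled Tam. *Cyp7b1*, a cytochrome P450 that hydroxylates oxysterols on the way to bile acids, stood at 0.519, 2.30 and 0.353 FPKM in WT, Tam and DoxTam. *Has2*, a synthase of the matrix sugar hyaluronan, stood at 0.533, 2.11 and 0.856 FPKM. *Gstm7*, a glutathione S-transferase that conjugates foreign compounds, stood at 0.886, 2.48 and 0.898 FPKM. Its neighbours in the Gstm cluster were also highest in Tam, *Gstm6* at 1.60, 4.00 and 2.24 FPKM and *Gstm3* at 1.16, 3.07 and 2.17 FPKM. *Mppe1*, a phosphoesterase that trims the lipid anchors of proteins, stood at 0.828, 2.49 and 0.740 FPKM. Of 9 genes of steroid and xenobiotic metabolism, 3 could be measured, 2 were 1.5-fold higher in Tam and none was lower, beside 6.98% higher and 3.59% lower over all genes. Those higher were the quinone reductase *Nqo1*, at 8.16, 18.4 and 12.7 FPKM, and the drug exporter *Abcb1a*, at 2.88, 6.47 and 4.57 FPKM in WT, Tam and DoxTam. In DoxTam they stood above WT by 0.58 and 0.52 on the log2 scale. Of 10 oestrogen receptor genes and targets, 3 could be measured, none was 1.5-fold lower and *Ctsd*, a lysosomal protease, was higher, at 120, 189 and 164 FPKM. The other measured genes were lower in Tam than in WT, short of 1.5-fold. *Greb1* stood at 1.05, 0.700 and 0.482 FPKM and *Igfbp4* at 1.46, 1.07 and 1.22 FPKM. The median log2 difference between Tam and WT in this list was -0.25.

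Surface, adhesion and signalling proteins formed another group. *Cd200*, an immunoglobulin-family protein whose receptor restrains myeloid cells, lies on chr16:45382248-45409166 (mm9, minus strand) and stood at 2.85 FPKM in the library labelled Tam, beside 0.218 in WT and 0.221 in the one labelled DoxTam. Both other levels were nearly equal, and the Tam level was 12.9 times the higher of them. *Cdh4*, the adhesion protein R-cadherin, stood at 0.583, 2.82 and 0.764 FPKM in WT, Tam and DoxTam, and *Lhfpl2*, a protein that crosses the membrane several times, at 0.954, 3.21 and 0.893. *Prickle2*, a component of planar cell polarity, stood at 0.578, 2.18 and 0.684 FPKM. *Ceacam10*, of the carcinoembryonic antigen family, stood at 0.407, 2.22 and 0.563 FPKM. *Sp5*, a zinc finger transcription factor and known target of Wnt signalling, stood at 0.372 FPKM in WT and 2.66 in Tam and was listed at 0 in DoxTam. *Samd9l*, a protein known to restrain cell growth and to be induced by interferon, stood at 0.171, 2.25 and 0.528 FPKM, a Tam level 4.26 times the DoxTam level.

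Among channels and transporters, *Slc5a1*, the intestinal cotransporter of sodium and glucose, stood at 0.611, 2.58 and 0.546 FPKM in WT, Tam and DoxTam. *Trpm1*, a cation channel of melanocytes and retinal bipolar cells, stood at 0.265, 3.51 and 0.367 FPKM and was 9.57 times the higher other level. *Mlana*, a melanosome protein, stood at 0.989, 3.48 and 0.429 FPKM, and *Rab38*, a small GTPase that carries pigment enzymes to the melanosome, at 0.811, 2.04 and 0.885 FPKM. A list of 12 pigment cell genes was drawn up after these 3 had been seen, so it is no independent evidence. 6 of its genes could be measured in Tam and WT, of which 4 were 1.5-fold higher in Tam, beside 6.98% of all genes, and none lower. These were the 3 members, for which the rule fixes it, and *Mitf*, the regulator of the melanocyte lineage, at 4.13, 7.13 and 4.45 FPKM. In DoxTam 3 could be measured and none was 1.5-fold higher than WT, beside 4.12% of 12384 genes. The melanosome matrix gene *Pmel* stood at 3.87, 3.01 and 4.96 FPKM, *Rab27a*, which tethers melanosomes, at 5.75, 3.93 and 4.85, and the pigment enzyme *Dct* at 0.204, 0.551 and 0.135.

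Genes of secreted and structural proteins came from several tissues. *Sprr4*, a small proline-rich protein of the cornified envelope of skin, was listed at 0 in WT and DoxTam and at 6.77 FPKM in the library labelled Tam. Its transcript is 231 bases long, so that level rests on few fragments, and *Sprr1a* beside it stood at 0.113, 0.498 and 0 FPKM in WT, Tam and DoxTam. *Pglyrp1*, a peptidoglycan-binding protein of neutrophils, stood at 0.484, 4.31 and 0.752 FPKM. *Serpina3m*, of a cluster of serine protease inhibitors, was listed at 0 in both other libraries and at 3.32 FPKM in Tam, with *Serpina3k* beside it at 0.0579, 0.422 and 0 FPKM. *Cryga*, a lens crystallin, stood at 0.616, 2.60 and 0.607 FPKM, and *Smtnl1*, a smoothelin-like protein of muscle, at 0.563, 3.30 and 0.489. *Vpreb1*, which forms the surrogate light chain of the pre-B cell receptor, stood at 0.629, 2.15 and 0.194 FPKM, and its partner gene *Igll1* at 0.291, 1.37 and 0. *Bpifb5*, of a family of lipid-binding secreted proteins, stood at 0.555, 2.05 and 0.733 FPKM.

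Less is known of the genes that are left. The long noncoding RNA *5330411J11Rik* stood at 4.94 FPKM in the library labelled Tam, beside 0.593 in WT and 0.275 in the one labelled DoxTam, 8.32 times the higher other level. *4930591A17Rik* was listed at 0 in WT, at 4.53 FPKM in Tam and at 0.875 in DoxTam. *Asphd1* stood at 0.422 FPKM in WT and 2.98 in Tam and was listed at 0 in DoxTam. *Nxf3*, of the nuclear RNA export factor family, stood at 0.727, 2.39 and 0.772 FPKM and was the one member on the X chromosome. *Lrrc46*, *AA467197*, *Apol6*, *AY074887* and *A930041C12Rik* lay between 2.04 and 2.36 FPKM in Tam.

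10 of the 38 genes overlap another row of the tables, and for 8 of them that row is more than a small RNA gene, so the counting could have split reads between them. *Scarna10*, a guide RNA of Cajal bodies, lies within the row of *Ncapd2*, which stood at 97.2, 74.3 and 66.4 FPKM in WT, Tam and DoxTam. FPKM of so short an RNA is unstable, and *Scarna10* is uncertain as a member. *Oaz1-ps*, a pseudogene of the polyamine regulator *Oaz1*, was listed at 0.0330, 8.08 and 0.00238 FPKM, while *Oaz1* stood at 63.1, 47.2 and 47.2 FPKM. A row that joins the symbols *Eno1* and *Eno1b*, copies of the glycolytic enzyme enolase, was listed at 0.000188, 2.20 and 0.000313 FPKM, while the row of *Eno1b* stood at 60.1, 59.0 and 42.9 FPKM. These 3 rows share sequence or place with strongly expressed genes. *Mppe1*, *AY074887*, *Has2*, *Apol6* and *A930041C12Rik* overlap *Chmp1b* and *Gnal*, *Psma4*, *Has2os*, *Mb*, and *Glmn*, *Rpap2* and *1700028K03Rik*, and are uncertain too.

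The 38 genes lay on 17 chromosomes. Chromosome 2 held 7 of them (18.4%, beside 7.56% of the rows that the symbol rule kept). Chromosome 7 held 5 (13.2%, beside 8.23% of the same rows), and each other chromosome held at most 3. 1 pair of the 38 genes lay within 100 kb of each other, *4930591A17Rik* and *Cdh4* on chromosome 2, 25598 bp apart. The nearest gene on each side gave 74 genes, of which 38 could be measured. 5 of them (13.2%) were 1.5-fold higher in the library labelled Tam than in WT, beside 6.64% of all genes that are not small RNA genes. *Kctd13* and *Spata5l1* were 1.5-fold lower, beside 3.15% of the same genes, at 8.16, 4.70 and 3.02 FPKM and at 10.3, 5.61 and 5.32 FPKM in WT, Tam and DoxTam. The median log2 difference of these neighbours was 0.05, beside 0.02 over all genes.

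A few neighbours were highest in Tam together with their member. *Ube2l6*, which lies 1173 bp from *Smtnl1* and encodes an enzyme that attaches the interferon-induced modifier ISG15, stood at 0.984, 4.37 and 1.26 FPKM in WT, Tam and DoxTam. Beside *Cryga* lies *D630023F18Rik*, at 2.81, 9.68 and 4.86 FPKM, and 55253 bp from *Cryga* lies *Idh1*, the cytosolic isocitrate dehydrogenase, at 34.8, 116 and 58.0 FPKM. Both of these stood between WT and Tam in DoxTam, whereas *Cryga* itself was at nearly equal levels in WT and DoxTam.

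**Figure D3:**
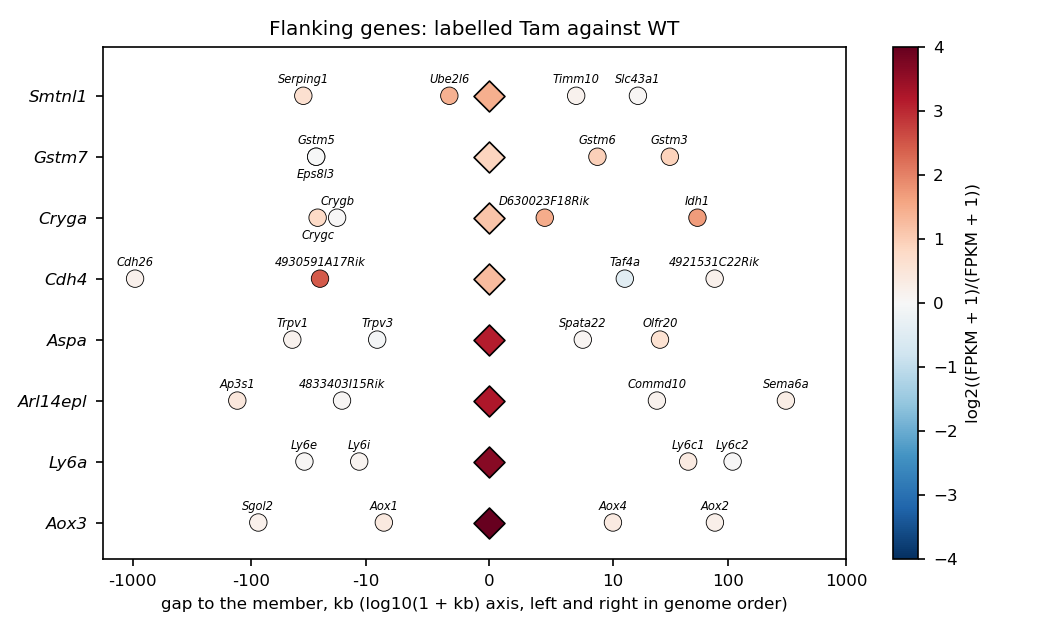
Log2 difference between the library labelled Tam and WT (FPKM + 1, colour scale) for 8 of the 38 genes (diamonds) and the 2 nearest genes on each side (circles), placed by the gap in kb on a log10(1 + kb) axis. The neighbours of *Aox3*, *Ly6a*, *Arl14epl* and *Aspa* are pale, and most of them lie below 1 FPKM in Tam and WT. *Ube2l6* beside *Smtnl1* and *Idh1* near *Cryga* are coloured like their member or more strongly.

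Of the 38 genes 32 were protein coding in the annotation. Their GC content had a median of 50.7%, beside 50.2% over 17100 protein-coding genes. Their transcripts had a median length of 1653 bases, beside 2698 over all genes and 2278.5 over the 6538 genes below 1 FPKM in WT and DoxTam. They had a median of 5 exons, beside 8 and 6 in the same groups. Short transcripts collect few fragments, so their FPKM moves in larger steps.

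Families of genes with no known use in ESCs give a level of background in each library. Of 1117 olfactory receptor rows, 70.7% were above 0 FPKM in the library labelled Tam, beside 34.0% in WT and 17.0% in the one labelled DoxTam. Their mean level was 0.0718, 0.285 and 0.0616 FPKM in WT, Tam and DoxTam, and the 99th percentile was 0.620, 1.39 and 0.877 FPKM. The share above 0 was also highest in Tam for 205 vomeronasal receptor rows of class 1 (13.7%, 37.1% and 10.7% in WT, Tam and DoxTam), 126 of class 2 (32.5%, 62.7% and 13.5%), 35 bitter taste receptors (17.1%, 51.4% and 14.3%), 52 keratin-associated proteins (13.5%, 30.8% and 3.85%) and 43 beta-defensins (9.30%, 23.3% and 14.0%). Of 4356 rows above 0 and under 1 FPKM in both WT and DoxTam, 72.3% were higher in Tam than in WT and 75.8% higher than in DoxTam. The median levels of these rows were 0.225, 0.363 and 0.205 FPKM. The 23 members from 2 to under 3 FPKM stand beside a 99th percentile of 1.39 FPKM for olfactory receptors in the same library, and the part of this background in their levels was not tested. With the same limits, 7 genes were on only in WT (0.035%) and 5 only in DoxTam (0.025%).

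**Figure D4:**
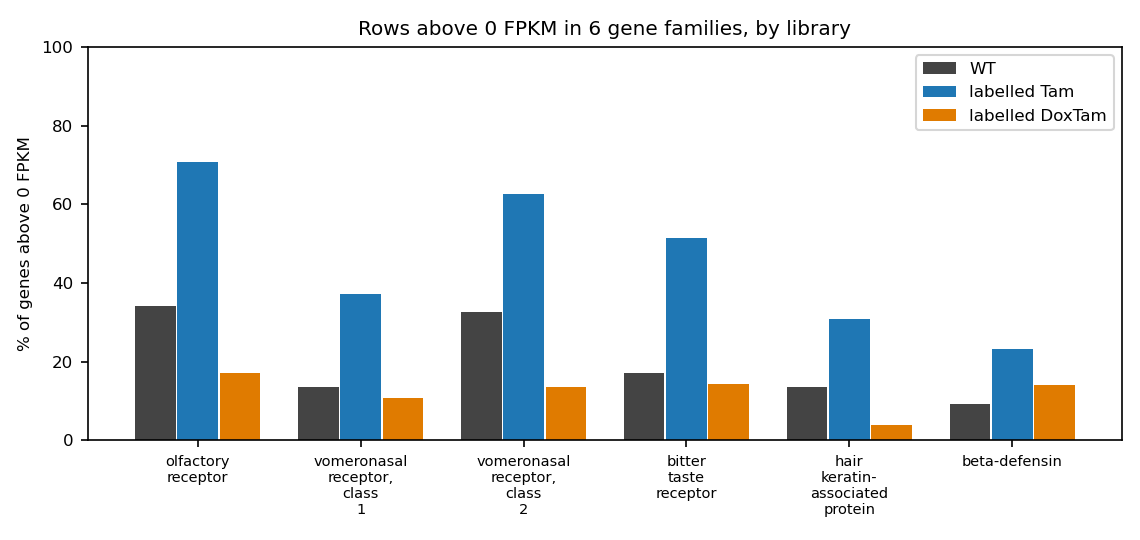
Share of rows above 0 FPKM in 6 gene families (bars from 0 to 100%) in the WT library, the library labelled Tam and the one labelled DoxTam. In each family the Tam bar is the highest, at 70.7% for the 1117 olfactory receptors beside 34.0% in WT and 17.0% in DoxTam.

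The tables hold no read counts. Steps in the levels of 961 olfactory receptor rows of 900 to 1100 bp gave a rough value for 1 fragment at 1 kb of 0.0798 FPKM in WT, 0.184 in Tam and 0.146 in DoxTam. By this measure the Tam library had 0.433 times and the DoxTam library 0.546 times the depth of WT, so the library with the fewest rows at 0 was the shallowest. From 50.2% to 77.5% of low levels came out within 0.1 of a whole number of fragments, so the fragment numbers are approximate. For 35 genes with a transcript model they gave 95% exact Poisson intervals, which cover counting error only. *Aox3* had an interval of 17.0 to 20.5 FPKM in Tam, *Ly6a* 14.7 to 22.9 and *Aspa* 8.06 to 10.6. *Sprr4* rested on 8.49 estimated fragments, with an interval of 2.75 to 12.6 FPKM in Tam and up to 2.33 in DoxTam. Its 231 bases lie far below the 900 to 1100 bp on which the value of 1 fragment was set. Scaling by length may not hold there, and its true fragment number could be smaller. Since the genes were chosen by these same levels, whether the intervals meet is largely set by the rule and is given as a description of precision. The Tam interval met another in 11 of the 35 genes: *Mlana*, *Cryga*, *Gstm7*, *Lrrc46*, *Ceacam10*, *AY074887*, *AA467197*, *Vpreb1*, *Bpifb5*, *A930041C12Rik* and *Rab38*. Intervals that meet do not show that the levels are alike.

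**Figure D5:**
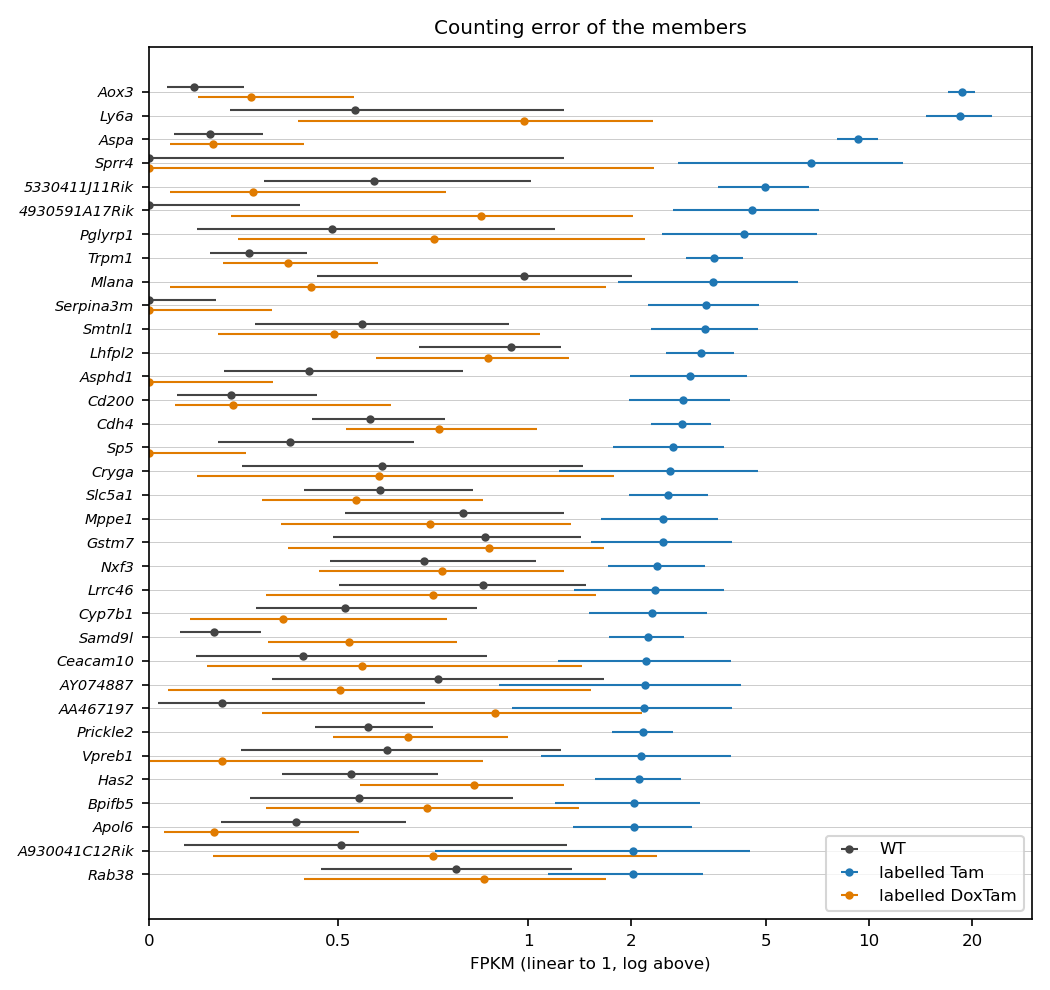
Level of the genes with a transcript model in the 3 libraries, with 95% exact Poisson intervals from estimated fragments, on an axis that is linear to 1 FPKM and log above (*Scarna10* left out). The intervals are narrow for *Aox3* at the top, and for *Rab38* at the bottom the intervals of the 3 libraries meet.

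At the limits themselves the genes on either side lay close together. Just inside 2 FPKM in the library labelled Tam lay *Rab38*, *A930041C12Rik* and *Apol6*, all at 2.04 FPKM, and just outside lay *H19* at just under 2 FPKM and *Ldhc* and *Erv3* at 1.97 FPKM. *H19*, an imprinted noncoding RNA, stood at 0.351 FPKM in WT and 0.664 in DoxTam. Just inside 1 FPKM in WT lay *Mlana*, *Lhfpl2* and *Gstm7*, and just outside lay *Pdcl2* at 1.02, *Sh2d4b* at 1.03 and *Msx2* at 1.03 FPKM. *Sh2d4b* stood at 11.0 FPKM in Tam and 0.679 in DoxTam, and its WT level alone keeps it out. At the limit of 1 FPKM in DoxTam, *Ly6a*, *AA467197* and *Gstm7* lay just inside, and *2510009E07Rik* at 1.01, *Fcer1g* at 1.03 and *Fxyd2* at 1.06 FPKM just outside. *Fcer1g*, a signalling chain of immune receptors, stood at 0.137 FPKM in WT and 3.02 in Tam.

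Markers of other cell types were looked at beside the members. Of 8 liver markers, set beside *Aox3* and *Cyp7b1*, none reached 1 FPKM in any library, and their summed level was 0.203, 1.10 and 0.795 FPKM in WT, Tam and DoxTam. *Alb*, the albumin gene, was listed at 0 in WT and DoxTam and at 0.142 FPKM in Tam. Of 8 markers of blood and endothelium, set beside *Ly6a*, *Pglyrp1* and *Vpreb1*, 4 could be measured and none was 1.5-fold higher or lower in Tam, with summed levels of 16.7, 22.6 and 16.9 FPKM. *Ptprc*, the pan-leukocyte antigen CD45, stood at 0.0337, 0.0817 and 0 FPKM. Of 8 trophoblast markers 6 could be measured and *Gata3* was higher, at 0.0980, 1.77 and 0.213 FPKM, with a summed level of 27.7, 32.4 and 29.6 FPKM. *Cdx2*, a trophectoderm factor, and *Tfap2a* are not on that list, and both met the levels of the rule before they were set aside by symbol. Of 8 neural markers 4 could be measured, with *Nes* higher (1.71, 3.62 and 1.35 FPKM) and *Tubb3* lower (24.8, 15.3 and 20.7 FPKM) in Tam, and the summed level was 32.7, 24.4 and 29.7 FPKM. Primitive endoderm, fibroblast, and testis and germ line markers gave no gene 1.5-fold higher in Tam, while *Thy1* stood at 4.52, 2.27 and 2.63 FPKM and *Stra8* at 59.5, 27.9 and 31.2 FPKM. In a bulk sample more cells of a type and more RNA per cell cannot be told apart.

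Within the limit of 1 FPKM, DoxTam stood above WT in 20 of the 38 genes and below it in 15. Of the 32 members above 0 in every library, 19 (59.4%) were higher in DoxTam than in WT, beside 47.1% of the 4356 low rows. The rule holds both levels below 1 FPKM, so nothing is read from these shares.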

How the data were processed

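RNA-seq of 3 E14 ESC libraries, 1 per condition, was read from 2 tables, WT with Tam and WT with DoxTam. The libraries were prepared with a stranded kit. The deposited FPKM values were made by the authors with TopHat, Bowtie and Cufflinks 2.0.0 on mm9, per the labels (other versions are not given in the sources used here). The authors' columns of log2 fold, test statistic, p and q were not used. Rows were paired by locus, where both tables hold the same loci, and 27 symbols that differed concerned no member. The members and gene lists were chosen with earlier results of these data known. Named genes were the leading 4, the 20 highest, those at the limits, neighbours, known functions and list members at 2 FPKM. A gene was measured at 1 FPKM in either library, and passed at 1.5-fold of FPKM + 1. No test was made. Coordinates are mm9 as deposited, 1-based, and a locus may be wider than its gene. Strand, exons and lengths came from GENCODE (mm9), promoters from RefSeq (GRCm38.p6). The scripts were tested on simulated data and ran in python 3.11.15 with pandas 2.3.3, numpy 2.4.6 and matplotlib 3.10.9. Total read depth is not in the tables.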

Additional observations from a re-analysis of the deposited data

How the results depend on the processing

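With 1 library per condition no replicate could be left out. No paired analysis was possible because the labels give no replicate numbers and each condition has 1 library. The number of genes, 38, became 379 with a limit of 1 FPKM in the library labelled Tam, 15 at 3 FPKM and 7 at 5 FPKM. It became 12 with the other libraries below 0.5 FPKM, 3 with them listed at 0, and 62 with all symbols kept. With a tested status in both comparisons it became 0, which the rule largely sets by keeping WT and DoxTam low. Between Tam and WT alone, 15 of the 38 genes had a tested status. Rescaling the libraries to the same total left 35 genes, 32 of them members, and *Ly6a* was lost at 1.14 FPKM in DoxTam; it moved the median of all genes by 0.13 on the log2 scale. Rescaling without small RNA genes left 38. Subtracting the mean olfactory receptor level left 29, 26 of them members. Chosen after seeing the data, 28 overlapped no other row and 31 had 10 or more estimated fragments. The median difference from WT, 1.34, became 2.28 with a pseudocount of 0.1, 0.49 with 5, and 3.25 over the genes at 5 FPKM; from DoxTam, 1.39 became 2.39, 0.47 and 3.18. Genes on only in WT fell to 1 at 5 FPKM, and those on only in DoxTam became 8 rescaled and 1 at 5 FPKM. Of 76 differences of single genes, 61 moved with a pseudocount of 0.1 and 62 with 5. A smaller pseudocount widens such a difference and a larger one shrinks it, so the direction of these shifts follows from the formula. 0 reversed under any setting, which the rule fixes by placing Tam well above both other levels.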
